A study of Homo sapiens with 2 samples.

Results

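The annexin family was described here by the occupancy of its genes in a chromatin immunoprecipitation on promoter arrays (ChIP-on-chip) for GATA1. Members were the annexin genes ANXA1, ANXA2, ANXA3, ANXA4, ANXA5, ANXA6, ANXA7, ANXA9, ANXA11 and ANXA13, found by their symbols in the probe annotation of the arrays. These 10 genes stood among 17054 genes that could be given a value, out of 17280 genes named on the arrays. The members held 282 probes, all of which passed the filters, and 238 windows of 3 adjacent probes. The array called chIP1 held 7 members and chIP2 held 3, namely ANXA2, ANXA7 and ANXA11.

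The cells were untreated Meg-01, an established human megakaryocytic leukemia line, whose identity cannot be checked by marker genes on arrays that measure DNA only. DNA recovered with the GATA1 (C-20) antibody (the IP, labeled with Cy5) was hybridized together with DNA pulled down by normal goat IgG from the same soluble chromatin (Cy3). The 2 arrays carried different probes and were not replicates of each other, so each probe was measured in 1 hybridization, without a dye swap. Values therefore have no replicate error and no test over samples could be run, with precision limited by having 1 array for each gene.

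Annexins are proteins that bind phospholipid membranes when calcium rises, through a repeated core domain that the family shares. ANXA5 binds phosphatidylserine with high affinity, and in labeled form it is the usual stain for apoptotic cells. GATA1 is the zinc finger transcription factor of the red cell and megakaryocyte lineages and binds GATA sequences in promoters and enhancers. The study also tested ANXA5 by ChIP followed by PCR and lists it among genes with a peak here and changed expression after GATA1 knockdown. ANXA5 was selected for PCR on these arrays. The place of ANXA5 in its family is therefore a description and not independent evidence.

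The following sequences are shown because they hold the GATA sequences found at the annexin genes, or because they cover the promoter of the gene that was tested by PCR. The search covered both strands of the 250 bases upstream of each annotated start (RefSeq, GRCh38.p14) for the word AGATAA, the word TGATAA, the word AGATAG and the word TGATAG. Matches could overlap, as all 4 words share the letters GATA, and 22.3% of 35116 promoters held at least 1 match. Promoters were found for 9 of the 10 members, not for ANXA13, and 1 of their 13 promoter entries held a match. That match was in ANXA7, at -196 to -191 from the start, and is shown in capitals with 15 bases on either side (chr10:73414234-73414269, minus strand). ANXA10, an annexin outside the member list, also held a match, at -40 to -35 (chr4:168092482-168092517, plus strand). The 250 bases upstream of ANXA5 (chr4:121696981-121697230, minus strand) held none and had a GC content of 78.8%, where the median of all promoters was 58%. The forward PCR primer of ANXA5 held a match read on the other strand, at bases 8 to 13, in capitals. A match is a description of letters and not a binding site.
ANXA7 promoter: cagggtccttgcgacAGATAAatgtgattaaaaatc
ANXA10 promoter: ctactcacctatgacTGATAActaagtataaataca
ANXA5 promoter: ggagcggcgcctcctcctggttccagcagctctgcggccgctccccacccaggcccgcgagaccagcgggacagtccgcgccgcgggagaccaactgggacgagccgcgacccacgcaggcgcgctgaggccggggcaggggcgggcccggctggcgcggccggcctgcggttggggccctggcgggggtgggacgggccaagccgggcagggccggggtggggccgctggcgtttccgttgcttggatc
ANXA5 forward primer: atggcccCTATCAac
ANXA5 reverse primer: aagctacattccagtatcac

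Neither primer occurred in the promoter stretches of the RefSeq table, so the amplified region was not placed relative to the probes. The value of a probe below is log2 of the IP over the IgG intensity with the median of its array set to 0, and a window value is the mean of 3 adjacent probes. A window of at least 1 (2-fold) was counted as IP side, and one of at most -1 as IgG side. Chromatin fragments averaged several probe spacings in length, so neighboring probes and overlapping windows are not independent. Coordinates of probes are those of the array annotation, whose genome build is not given in the sources used here, and they must not be read against the promoter coordinates above. Distances are from the annotated transcription start, negative upstream.

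Depth in array terms was similar on both arrays. The median spot brightness was 543 and 544 in the IP channel, against 342 and 340 for negative control spots, and 412 and 440 in the IgG channel, against 303 for both. The SD of all probes was 0.97 on each array. Control probes spotted at least 12 times had a median SD of 0.058 (chIP1) or 0.050 (chIP2) over their spots, a measure of spotting and scanning error that leaves out the immunoprecipitation.

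Of the 10 annexin genes, 4 had an IP-side window, where 57.1% of all genes did. These were ANXA9, ANXA5, ANXA2 and ANXA1. IgG-side windows were found in 6 members, ANXA2, ANXA3, ANXA4, ANXA5, ANXA9 and ANXA13, where 52.9% of all genes had one. Both kinds were present in ANXA2, ANXA5 and ANXA9 (31.3% of all genes), and neither in ANXA6, ANXA7 and ANXA11 (21.3% of all genes). The median of the highest windows was 0.93 over the members and 1.09 over all genes, and the median of the lowest windows was -1.01 and -1.05, respectively. Members had a median of 19 windows and all genes of 23, and a gene with more windows has more chances of a high and of a low one. By windows, 10 of 238 (4.20%) were IP side, against 7.62% of all windows, and 18 (7.56%) were IgG side, against 9.65%. Over whole loci at the reported setting, neither share of the family on the IP side was above that of all genes. Under some of the other settings given below, the share by genes was above it.

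**Figure D1:**
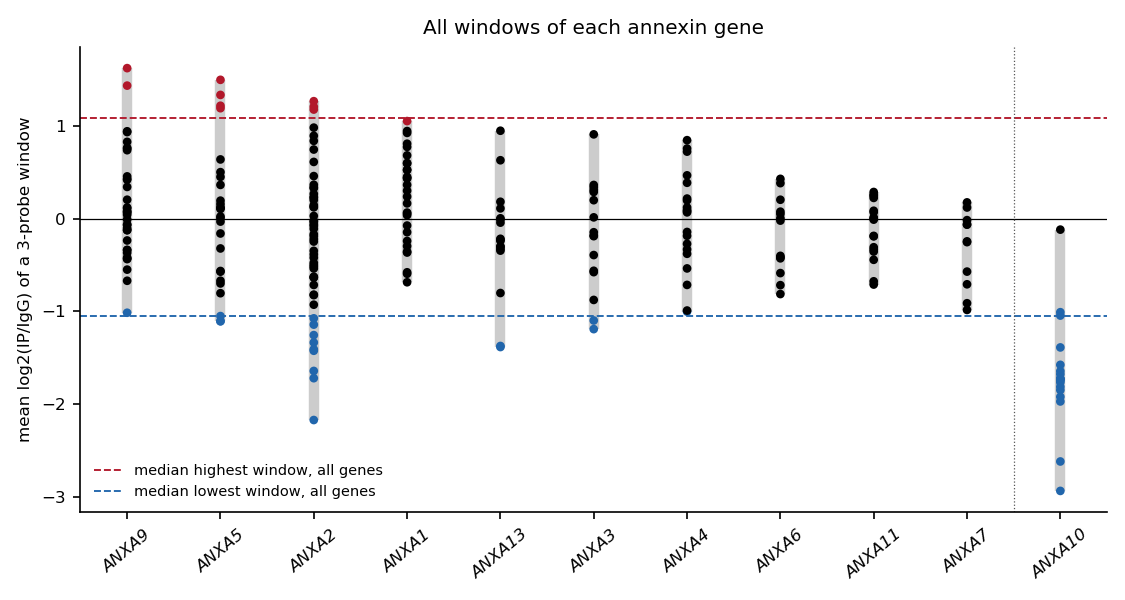
All windows of each annexin gene, 1 point per window, as mean log2(IP/IgG) of 3 probes, with red for IP side and blue for IgG side. Grey bars span lowest to highest, dashed lines are the medians of the highest (1.09) and lowest (-1.05) window over all genes, and ANXA10, right of the dotted line, is not a member. ANXA9, ANXA5 and ANXA2 rise above the upper line, and ANXA10 lies wholly below 0.

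The order of the genes by highest window was ANXA9 (1.63), ANXA5 (1.501), ANXA2 (1.27), ANXA1 (1.06), ANXA13 (0.95), ANXA3 (0.91), ANXA4 (0.85), ANXA6 (0.43), ANXA11 (0.29) and ANXA7 (0.18). Within its array, the highest window of ANXA9 stood at percentile 79.9 of all genes, that of ANXA5 at 74.0 and that of ANXA2 at 64.5. ANXA1 stood at 45.0, below the middle of all genes although past 2-fold. ANXA6, ANXA11 and ANXA7 stood at 7.44, 6.04 and 3.89, near the bottom. The ranges of the 3 probes behind each window overlapped between every pair of neighbors in this order. ANXA5 and ANXA9, which differed by less than the spread of either one's probes (0.79 to 2.04 and 0.10 to 2.41), cannot be ordered from these data.

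Averaging over every probe of a member gave another order. ANXA1 was highest (0.27, SD 0.70 over 33 probes), followed by ANXA9 (0.16), ANXA4 (0.07), ANXA5 (0.03) and ANXA6 (-0.02). ANXA3 (-0.05), ANXA11 (-0.08), ANXA13 (-0.19), ANXA7 (-0.21) and ANXA2 (-0.33, SD 1.04 over 59 probes) were below the array median. Neighbors in this order differed by less than the SD of the probes of any member, which was 0.58 for ANXA11 and above that for the others.

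**Figure D2:**
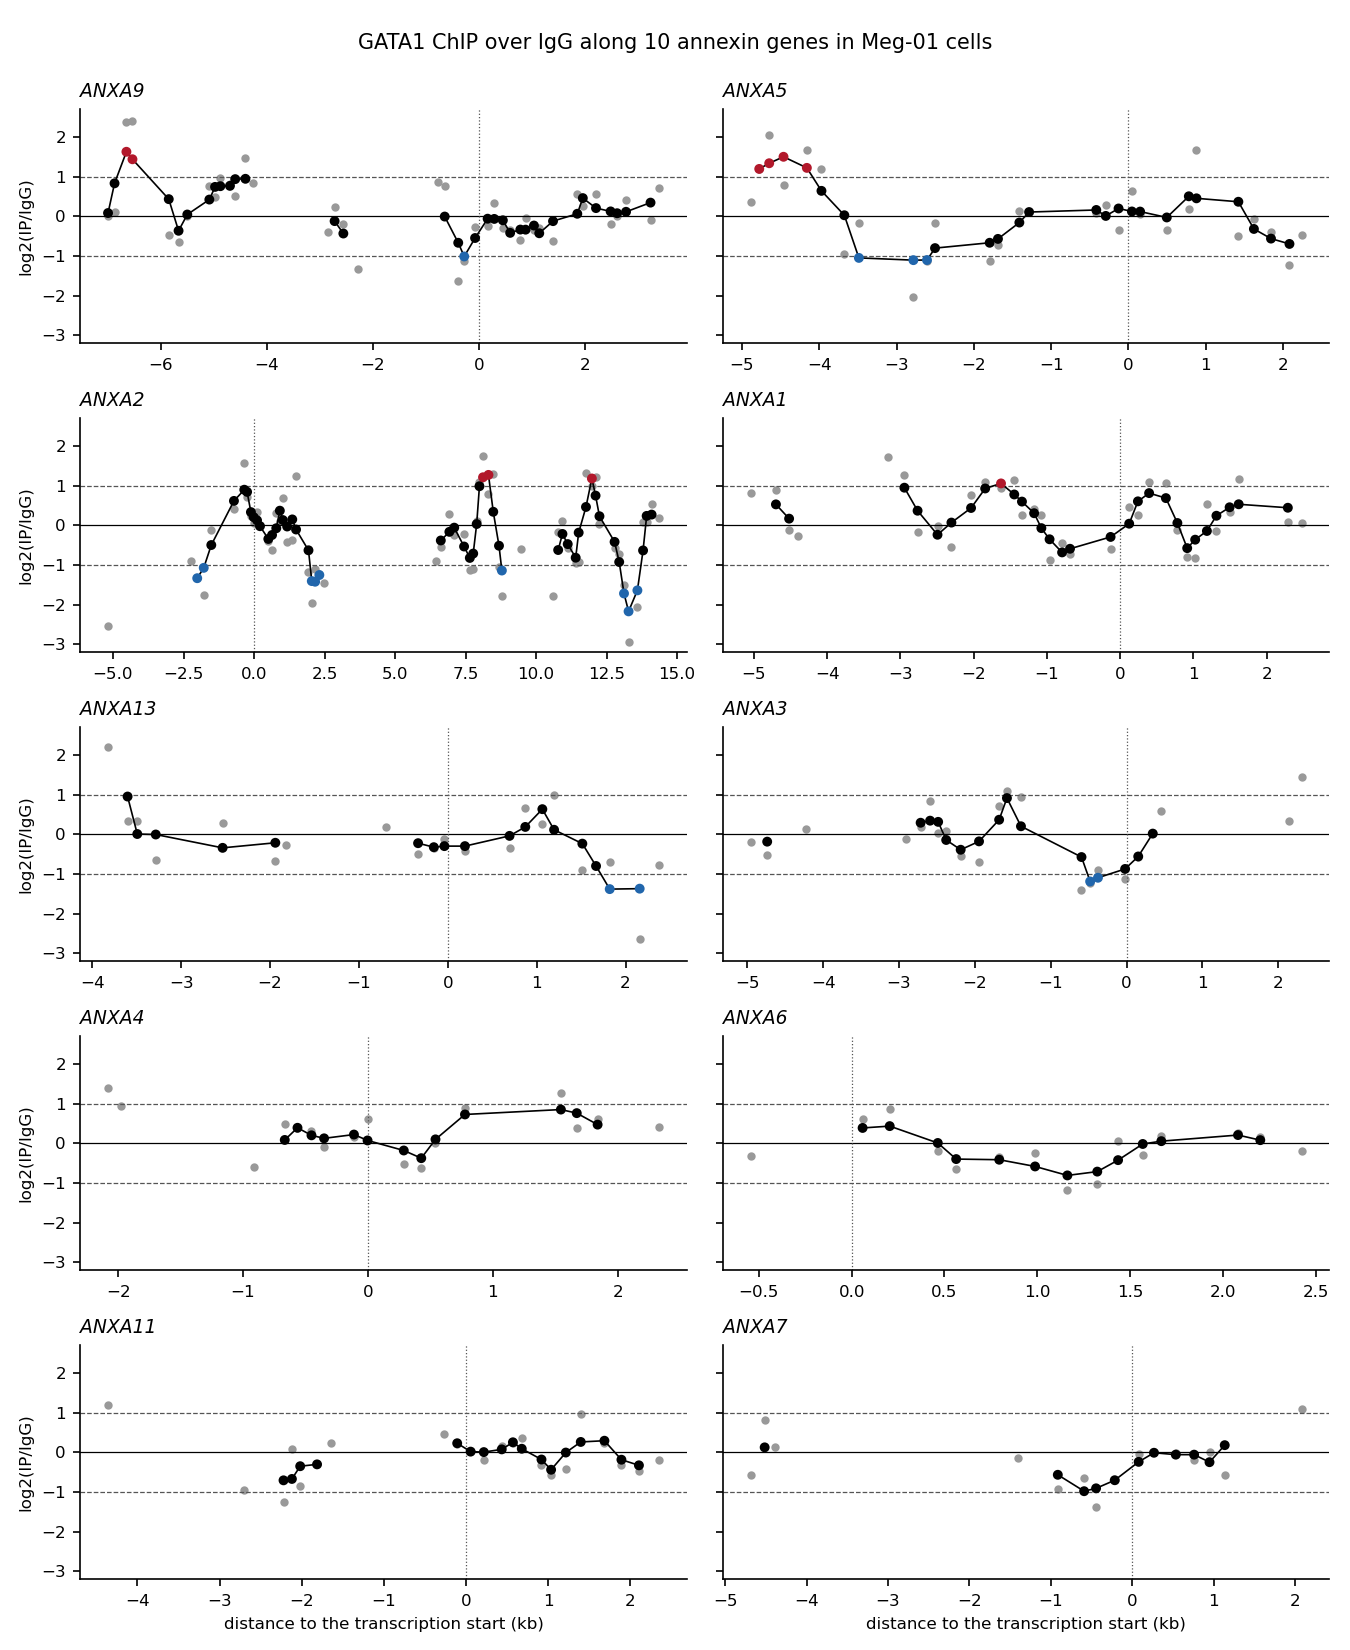
log2(IP/IgG) of single probes (grey) and of 3-probe windows (black line, red where IP side, blue where IgG side) against the distance to the transcription start in kb, in 10 panels ordered by highest window. Probes more than 15 kb inside or past ANXA4 and ANXA6 are not drawn. High windows lie upstream in ANXA9, ANXA5 and ANXA1 and inside the gene in ANXA2. No red point lies within 0.5 kb of distance 0, the start annotated under the gene's symbol.

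ANXA5, the phosphatidylserine-binding annexin, was covered by 28 probes from -4887 to 2241 bp on chromosome 4. Its highest window was centered at -4462 bp (122979916-122980452). Its 3 probes were 2.04 at -4647 bp (IP intensity 1731, IgG 421), 0.79 at -4462 bp (1029 and 598) and 1.68 at -4160 bp (968 and 304). All 3 were higher in the IP, and the middle one was under 2-fold.

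The window belonged to a run of 4 adjacent IP-side windows of ANXA5, with means of 1.19, 1.34, 1.501 and 1.22. A run of at least 4 was found in 11.8% of all genes. No other member had a run of more than 2. The 6 probes behind the run, from -4887 to -3971 bp, were all above 0, with a mean of 1.21 (SD 0.60) and a range of 0.36 to 2.04. IP intensities along them went from 2279 at the second probe to 216 at the last, and IgG intensities from 1326 to 94, so both channels dimmed toward the start.

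Next to this stretch, ANXA5 leaned the other way. From -3675 to -1688 bp all 7 probes were below 0, with a mean of -0.90 (SD 0.64) and a lowest value of -2.02 at -2782 bp (IP 199, IgG 812). IgG-side windows there numbered 3, at -1.05, -1.11 and -1.10. Around the start the gene was flat, with 6 windows within 500 bp between -0.03 and 0.20 and a mean of 0.10. The probe at -293 bp was bright in both channels (IP 3847, IgG 3156) with a log2 ratio of 0.29. The probe at 880 bp inside the gene reached 1.66 at low intensities (IP 206, IgG 65), and its neighbors did not follow.

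**Figure D3:**
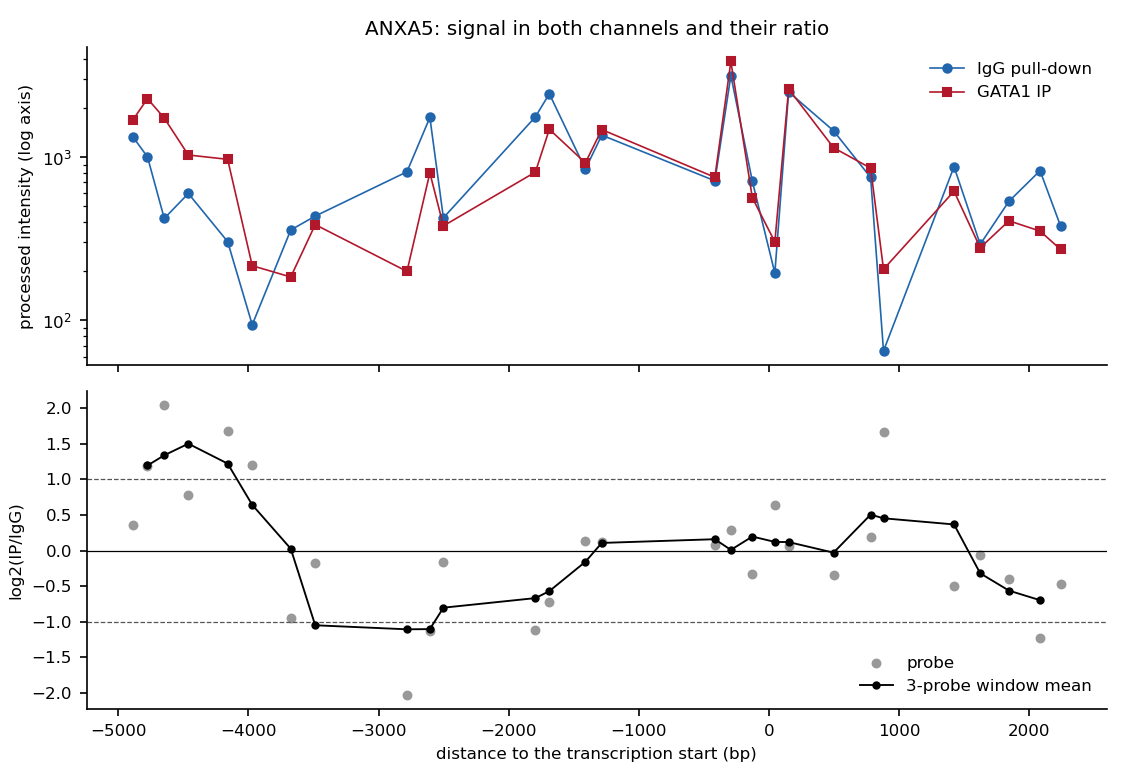
ANXA5 by distance to the start in bp, with the processed intensity of both channels on a log axis (top) and the log2 ratio of probes and 3-probe windows (bottom), 28 probes on 1 array. The IP line runs above the IgG line from -4887 to -3971 bp and below it from -3675 to -1688 bp, and the lines meet around the start.

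ANXA9, an annexin with atypical calcium-binding sites, had the highest window of the family, but in a region annotated to another gene as well. The window was centered at -6653 bp from the ANXA9 start on chromosome 1 (147760727-147761117) and at -581 bp from the start of LASS2 (CERS2, a ceramide synthase). Its probes were 0.10, 2.38 and 2.41. At the 2 high probes the IP intensities were 1225 and 2291 and the IgG intensities 236 and 433. LASS2 had the same highest window, and without the 21 windows shared with it the highest window of ANXA9 was 0.46, in 15 windows with none past 2-fold on either side. The only IgG-side window of ANXA9 was also a shared one. With the shared windows left out, 3 members had an IP-side window, 5 an IgG-side window and 2 both. The shares of all genes (57.1%, 52.9% and 31.3%) keep windows shared between genes. No share without them was computed, so these counts have no matching background.

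Between both starts ANXA9 and LASS2 shared the brightest stretch of the family. The 7 probes from -5088 to -4270 bp had IP intensities of 4900 to 16431 and IgG intensities of 2208 to 9928. All 7 were above 0 (mean 0.84, SD 0.33), and their windows reached 0.95 but not 2-fold. Around the ANXA9 start, 6 of 7 probes were below 0 (mean -0.51, SD 0.65), with an IgG-side window of -1.01 at -278 bp.

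ANXA2, a membrane and secretion annexin that pairs with S100A10 and takes part in plasmin formation on cell surfaces, had the most probes (59). They lay on chromosome 15 and reached 14360 bp inside the gene. Of its 52 windows, also the most of any member, 3 were IP side and 9 IgG side, where 7.62% and 9.65% of all windows were. No member had more IgG-side windows. The highest window (58468966-58469380) was centered at 8312 bp, with probes of 1.28, 0.78 and 1.75. A separate IP-side window at 11978 bp had a mean of 1.18 with even probes (0.99 to 1.32) at low intensities (IP 237 to 372, IgG 101 to 184). The latter lay 78 bp past the start of a shorter annotated transcript.

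The lowest window of the family was also in ANXA2, at 13279 bp (58463856-58464390), with a mean of -2.17. It too lay just past the start of a shorter annotated transcript, by 120 bp. The probes of this window were -2.07, -2.95 and -1.50, with IgG intensities of 889, 1043 and 339 and IP intensities of 213, 136 and 120. The IP-side windows at 8312 and 11978 bp were themselves separated by an IgG-side window of -1.14 at 8787 bp. At 1931 to 2494 bp all 5 probes were below 0 (mean -1.38, SD 0.35), and near the start 6 of 7 were above 0 (mean 0.47, SD 0.54).

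ANXA1, a glucocorticoid-induced annexin that acts on formyl peptide receptors, had a single IP-side window. It was centered at -1626 bp on chromosome 9 (72994463-72994919), and its probes were 1.09, 0.94 and 1.14. The 3 values were close to each other but dim, with IP intensities of 578, 389 and 247 and IgG intensities of 272, 203 and 112. ANXA1 had no IgG-side window and no probe 2-fold toward the IgG, whereas 7 of its 33 probes were 2-fold toward the IP. It was the only member without an IgG-side probe, where 81.1% of all genes had at least 1. No share of probes past 2-fold was computed over all genes, so 7 of 33 has no background.

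ANXA13, an annexin of intestine and kidney epithelium, had a highest window of 0.95 that rested on 1 probe (2.19 at -3822 bp, next to 0.33 and 0.34). Its lowest window was -1.38, at 1822 bp inside the gene, and likewise held 1 extreme probe (-2.65, next to -0.70 and -0.80). ANXA3, an annexin of neutrophil granules, had a highest window of 0.91 at -1577 bp with probes of 0.71, 1.09 and 0.93. Around its start ANXA3 had the lowest window mean of the family, with all 5 probes from -594 to 154 bp below 0 (mean -1.06, SD 0.33) and 2 IgG-side windows. ANXA4, a Golgi and epithelial membrane annexin, had its highest window of 0.85 at 1545 bp with bright probes (IP 1983 to 2427). The IgG-side window of ANXA4 was -1.002 at 83883 bp inside the gene, among dim probes with an IP intensity as low as 47.0.

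The remaining 3 members had no window past 2-fold. ANXA6, which carries a duplicated annexin core, lay between -0.81 and 0.43 over 13 windows, with a median IP intensity of 1986 and IgG intensity of 2338. ANXA11, which binds the calcium sensor PDCD6 and S100A6, lay between -0.71 and 0.29 over 17 windows. ANXA7 (synexin), a membrane fusion annexin, lay between -0.98 and 0.18 over 11 windows. In ANXA7 the 4 probes from -914 to -215 bp were all below 0 (mean -0.91, SD 0.33). These probes were bright enough to be read (IP 415 to 1420, IgG 1074 to 2298).

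The annexins were also set against all genes by place relative to the start, as a description. Place was taken from the start annotated under the gene's symbol. The IP-side window of ANXA2 at 11978 bp, 78 bp past the start of a shorter transcript, therefore counts as inside. Within 500 bp of the start, 0 of 48 member windows were IP side, where 10.5% of all such windows were. On the IgG side there were 3 (6.25%), in ANXA3 and ANXA9, where 4.08% of all such windows were. The mean of the near-start windows was -0.08 over the annexins and 0.25 over all genes. ANXA2 had the highest near-start mean (0.40) and ANXA3 the lowest (-0.74). Beyond 2000 bp upstream, 6 of 47 member windows (12.8%) were IP side, against 6.69% of all genes' windows. All 6 came from ANXA5 and ANXA9, in 1 stretch each.

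**Figure D4:**
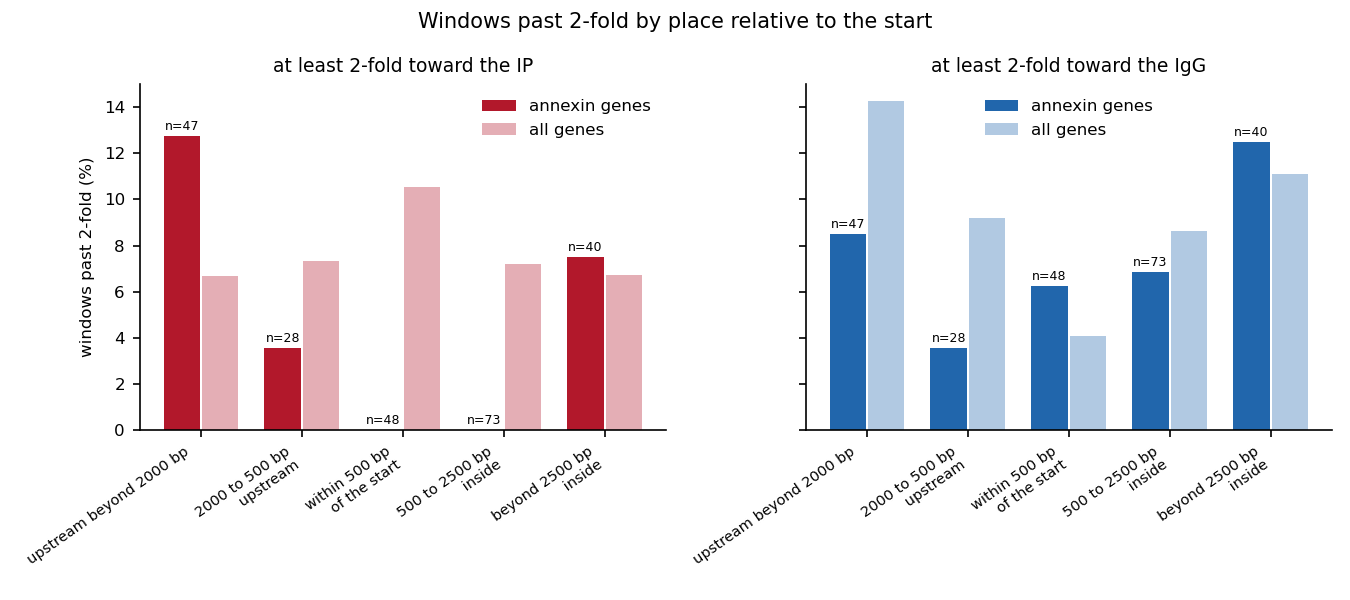
Percent of 3-probe windows at least 2-fold toward the IP (left, red) or the IgG (right, blue), by place relative to the start, for the 10 annexin genes (dark bars, with their number of windows) and all genes (light bars). The annexins have no IP-side window within 500 bp of the start, against 10.5% for all genes, and 12.8% beyond 2000 bp upstream, against 6.69%.

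Of 4 other annexins looked up by symbol, ANXA10 was the only one with a value. No value was found for ANXA8, ANXA8L1 or ANXA8L2 under the symbols searched. ANXA10 had 17 of 18 windows on the IgG side, a lowest window of -2.94 and a highest of -0.12, and 0.976% of the chIP1 genes had a highest window that low. Its probes were very dim, with medians of 65.6 in the IP and 148 in the IgG channel. With normexp background correction of the unprocessed spot intensities none of its windows was IgG side and its windows ran from -0.97 to -0.44.

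Binding partners of annexins and genes of phosphatidylserine exposure and recognition were set beside the family. Of 14 partners, 13 had a value, 9 an IP-side and 3 an IgG-side window, beside shares of 57.1% and 52.9% over all genes, with a median highest window of 1.04. S100A6, a partner of ANXA11 among others, was highest at 1.79, followed by SRI (sorcin, a partner of ANXA7) at 1.38. FPRL2 (FPR3, a formyl peptide receptor) at 0.69 and PLA2G4A, the cytosolic phospholipase A2, at 0.64 were lowest. Of 22 phosphatidylserine genes, 21 had a value, 12 an IP-side and 9 an IgG-side window, beside the same shares of all genes, with a median highest window of 1.05. TYRO3, a receptor that senses phosphatidylserine through bridging proteins, was highest at 2.31, and GAS6, such a bridging protein, followed at 2.24. PTDSS1, a phosphatidylserine synthase, at 0.28 and TIMD4, a phosphatidylserine receptor, at 0.05 were lowest. The medians of both lists were close to that of all genes (1.09).

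The 4 members with an IP-side window did not rest on the processing to the same degree. ANXA9, ANXA5 and ANXA2 stayed at 1 or above under 7 other ways of computing the values, with ranges of 1.01 to 2.41, 1.08 to 2.04 and 1.00 to 1.75. The use of single probes could not lower these values, since the highest probe of a window cannot lie below its mean. ANXA1 fell to 0.65 with normexp and 0.84 with windows of 5 probes. On the IgG side, the number of members fell from 6 to 3 with loess and to 1 with normexp. The run of ANXA5 fell from 4 to 2 windows with normexp. It was also 2 with single probes and with windows of 5 probes, but these counts are in units of another size. A run of 2 windows of 5 probes spans as many probes as 4 windows of 3 probes.

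**Figure D5:**
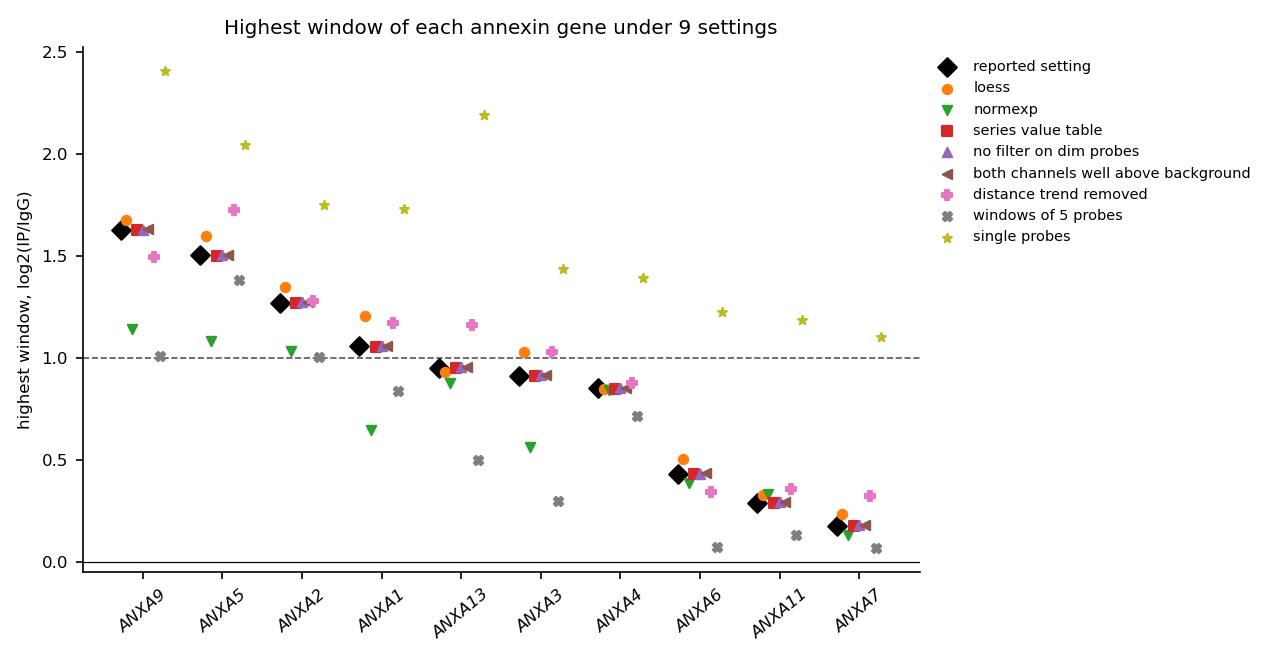
Highest window of each annexin gene, as log2(IP/IgG), under the reported setting (black diamonds) and 8 alternatives, with the dashed line at 1 (2-fold). ANXA9, ANXA5 and ANXA2 stay at or above the line throughout, ANXA1 crosses it, and all 10 genes lie above it when single probes are used.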

How the data were processed

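ChIP-on-chip of GATA1 against IgG in Meg-01 cells was measured on 2 promoter arrays, 1 hybridization each. Per the file headers, the authors made the intensity values with Agilent Feature Extraction 9.5.3.1 under its setting for ChIP. Deposited processed intensities were those left after subtraction of a spatial surface, detrending and linear dye normalization, steps that can compress or shift ratios of dim spots. The deposited log10 ratio is Cy5 over Cy3, and the series value table holds the same values. The study's own normalization and peak calling ran in commercial software not used here. The genome build of the probe annotation is not given in the sources used here.

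From the processed intensities, log2(IP/IgG) was computed and centered on each array's median. Control spots and non-uniformity outliers were removed, as were probes that exceeded background clearly in neither channel (237004 and 236864 of 237210 and 237201 probes kept). Windows held 3 adjacent probes with neighbors within 1000 bp, a gene took its highest and lowest window, and 2-fold was the threshold. The calling code was run on simulated probes that scattered far less than those of these arrays. That run checked the code only and says nothing on the calls made here. All 10 members were named, and in each related list the 2 highest and 2 lowest genes. The members, the lists and the thresholds were chosen with earlier results of these data known. Stretches of probes within a gene were bounded after their values were seen. Alternatives were loess, normexp (limma 3.58.1, offset 50), the series value table, 2 filters on dim probes, removal of a distance trend, single probes, windows of 5 probes and thresholds of 1.5-fold and 3-fold. Python 3.11.15 with numpy 2.4.6 and pandas 2.3.3 was used.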

Additional observations from a re-analysis of the deposited data

How the results depend on the processing

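No paired analysis was possible because every probe had 1 hybridization and the arrays shared no genomic probes. Of 70 highest windows of the 10 annexin genes under 7 alternatives, 59 kept their side of the 2-fold threshold and 11 changed it. The series value table is not counted, since it holds the same log ratios, and the unfiltered setting could change only the centering, since no member probe was filtered. Requiring both channels above background left the highest windows nearly unchanged as well, as in ANXA1 (1.056 to 1.058) and ANXA2 (1.271 to 1.272). The values kept under these 2 filters therefore say little on robustness. With single probes a highest value could move only upward. Beside the changes of ANXA1, ANXA3 passed 2-fold with loess (1.03), trend removal (1.03) and single probes (1.43), and ANXA13 with trend removal (1.16) and single probes (2.19). The number of annexin genes with an IP-side window, 4 as reported, was 6 with trend removal, 10 with single probes, 7 at 1.5-fold and 1 at 3-fold. In these settings 55.5%, 86.1%, 85.0% and 20.6% of all genes had one. The IgG-side number, 6 as reported, was 3 with loess, 1 with normexp, 10 at 1.5-fold and 1 at 3-fold, where 49.9%, 23.9%, 78.4% and 22.3% of all genes had one. ANXA5, placed 2 by highest window, was placed 1 with trend removal and with windows of 5 probes and 3 with single probes. The cause of these changes was not tested, except that fewer windows can pass a stricter threshold and that single probes can only raise a highest value.

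For the related lists, the run of ANXA5 and ANXA10, the alternatives were chosen after seeing the data. The IP-side number of partners, 9 as reported, was 5 with normexp, 2 with windows of 5 probes and 1 at 3-fold. The IgG-side number of partners, 3 as reported, was 1 with normexp, 11 with single probes, 0 with windows of 5 probes, 9 at 1.5-fold and 0 at 3-fold. The IP-side number of phosphatidylserine genes, 12 as reported, was 6 with normexp, 6 with windows of 5 probes and 2 at 3-fold. The IgG-side number of phosphatidylserine genes, 9 as reported, was 5 with normexp, 18 with single probes, 5 with windows of 5 probes, 18 at 1.5-fold and 1 at 3-fold. The shares of all genes moved as well, to 33.1% (normexp) and 34.1% (5 probes) on the IP side and to 23.9% (normexp), 81.1% (single probes) and 33.5% (5 probes) on the IgG side, beside those given above for both thresholds. The run of ANXA5 was 0 windows at 3-fold. Dim probes limit ANXA10, the far probes of ANXA4, the IP-side window of ANXA1 and the ANXA2 windows at 11978 and 13279 bp. The ANXA5 run also ends in a dim probe, with an IgG intensity of 94.0.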
